A study of Mus musculus with 2 samples.

Results

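The regions described here are the listed STARR-seq regions that lie nearest to genes of chromatin modifiers and remodellers. A region was taken when the protein-coding transcription start closest to its centre, within 100 kb, belonged to a gene named Eed, Suz12, Jarid2 or Bmi1, or to a gene whose symbol starts with Kdm, Kmt, Setd, Ezh, Phc, Cbx, Pcgf, Hdac, Sirt, Kat, Brd, Chd, Smarc, Arid, Ino80, Dnmt or Tet (with a digit next for Phc, Cbx, Sirt, Kat, Brd, Chd and Tet). This gave 206 regions of the 14994 in the deposited table, spread over 102 of the 138 protein-coding genes with such a symbol. Symbols alone were used, so the set includes Brd3os, a neighbour of Brd3 that is not a bromodomain gene and is kept apart below.

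STARR-seq places genomic fragments in a reporter carried on an episome, where a fragment with enhancer activity raises its own transcription, so that the RNA output is compared with the DNA input. The experiment had 1 group of 2 output libraries, biological replicates from primary activated T helper 1 (Th1) cells of C57BL/6NJ mice with the same donor identifier, transfected transiently. Per the labels both cultures received interleukin-2, interleukin-12 p70 and an antibody to interleukin-4 for 4 days and antibodies to CD3e and CD28 for 3 days. The dose of the antibody to CD3e was 0.25 ug/mL in both, the interleukins were at 10 ng/mL each as far as the label of replicate 1 shows, and the antibodies to CD28 and interleukin-4 were at 1 and 2 ug/mL as far as the label of replicate 2 shows. The labels record the age of the mice as unknown and their sex as not collected, and the table holds no expression values with which the Th1 label could be checked. Every effect, p-value and adjusted p below is the authors' own, taken from the authors' deposited table. That table pools the libraries, so replicate error cannot be given, and it states no depth. Neither the scale nor the sign convention of the effect is documented in these sources, and a positive effect is taken here to mean more output than input. All listed regions had an adjusted p below 0.01, so a gene with no region is one without a listed region, not one shown to be inactive.

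Chromatin modifiers set how accessible a gene is. Polycomb repressive complex 2 (PRC2) methylates histone H3 at repressed genes, and Polycomb repressive complex 1 (PRC1) ubiquitinates histone H2A and compacts chromatin. Lysine methyltransferases and demethylases, acetyltransferases and deacetylases write and remove the other histone marks, bromodomain proteins bind acetylated lysines, and the SWI/SNF, CHD, ISWI and INO80 remodellers move nucleosomes with the energy of ATP. DNA methyltransferases and TET enzymes add and oxidise methyl groups on cytosine. In CD4 T cells, Ezh2, Dnmt3a and Kmt2a are known as regulators of stable T helper fates. The effects below belong to DNA near these genes and are no measure of the proteins or of transcription of the genes themselves.

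Sequences are printed for regions at both ends of the range, as examples of the single-copy extremes and not of the whole set. Single-copy means that the 300 bp around the centre had no second match at the limits given further on. Regions shorter than this were judged together with flanking sequence. The highest effects at sequence with several copies, 5.84 near Ezh2 and 2.40 at Smarca5, lay in DNA of 66.2% and 64.9% GC. Coordinates are mm10, letters are from the plus strand of the RefSeq copy of that assembly, and each is trimmed to the longest stretch, of at most 300 bases, with no annotated untranslated sequence. Capitals mark any of 14 consensus sequences of transcription factors named further on. The 3 lowest effects among single-copy regions were next to starts of Phc1 (-3.60), Kat6a (-2.94) and Dnmt3a (-2.80).
Phc1, chr6:122339750-122340049: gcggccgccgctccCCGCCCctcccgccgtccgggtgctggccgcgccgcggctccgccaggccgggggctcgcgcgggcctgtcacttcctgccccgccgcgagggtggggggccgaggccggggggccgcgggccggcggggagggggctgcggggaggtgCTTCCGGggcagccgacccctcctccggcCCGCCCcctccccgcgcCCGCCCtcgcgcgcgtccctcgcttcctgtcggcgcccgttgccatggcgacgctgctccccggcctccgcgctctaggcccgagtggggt
Kat6a, chr8:22860150-22860449: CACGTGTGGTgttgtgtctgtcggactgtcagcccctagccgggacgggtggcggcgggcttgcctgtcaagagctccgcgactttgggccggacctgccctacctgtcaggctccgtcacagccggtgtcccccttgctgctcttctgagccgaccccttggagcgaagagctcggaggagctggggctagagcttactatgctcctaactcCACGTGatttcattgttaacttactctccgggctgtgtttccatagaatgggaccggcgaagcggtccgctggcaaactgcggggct
Dnmt3a, chr12:3807255-3807425: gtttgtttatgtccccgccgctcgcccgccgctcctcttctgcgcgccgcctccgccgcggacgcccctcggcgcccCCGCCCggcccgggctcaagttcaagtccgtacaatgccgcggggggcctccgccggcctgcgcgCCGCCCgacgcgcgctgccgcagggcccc
The Phc1 stretch held 47 CpG dinucleotides in 300 bases and 3 matches of GGGCGG, the core of SP and KLF sites, and the Dnmt3a stretch held 30 CpG dinucleotides in 171 bases and 2 such matches. The Kat6a stretch held 21 CpG dinucleotides and no GGGCGG, and its 2 CACGTG matches include 1 that overlaps a RUNX match. The 3 highest effects among single-copy regions were far from starts, at Pcgf5 (3.29) and, in neighbouring regions, at Kmt2e (2.65 and 2.27), whose sequences follow.
Kmt2e, chr5:23365626-23365725: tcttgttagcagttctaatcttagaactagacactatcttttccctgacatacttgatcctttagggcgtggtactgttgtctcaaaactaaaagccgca
Kmt2e, chr5:23365751-23365800: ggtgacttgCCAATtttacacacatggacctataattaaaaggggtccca
The Kmt2e sequences are AT-rich and hold 2 and 0 CpG dinucleotides, and the second holds 1 CCAAT box. They are also repeats: 99.0% of the higher Kmt2e region was soft-masked in the assembly, as was most of the other, and 98.3% of the Pcgf5 region.

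The share of negative regions was larger in chromatin genes than in the rest of the table. Of the 206 regions 140 were positive and 66 negative, which is 32.0% negative (95% Wilson interval 26.0 to 38.7%), against 2824 of the 14767 other listed regions (19.1%, 18.5 to 19.8%). Over all 14973 listed regions on chromosomes 1 to 19, X and Y, 19.3% were negative and 80.7% positive. The difference is given as counts and was not tested, since regions of 1 table are not replicates, and intervals on shares cover counting error over regions only. The median effect was 0.674, against 0.735 among other regions. Within each sign the medians were 0.785 against 0.805 for positive regions and -1.26 against -1.07 for negative regions. An effect of -2 or less was seen in 5 of the 206 regions (2.43%; 1.83% of all listed regions), and one of 2 or more in 6 (2.91%; 5.52% of all listed regions).

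Most of the negative regions, 52 of 66, lay at promoters. Regions centred no more than 1000 bp from any annotated start, coding or not, are called promoter regions, and all others distal. In chromatin genes 52 of 111 promoter regions were negative (46.8%, 37.8 to 56.1%), against 1906 of 7738 other promoter regions (24.6%, 23.7 to 25.6%), with 24.9% over all listed promoter regions. Distal regions were negative in 14 of 95 cases (14.7%, 8.99 to 23.2%), against 918 of 7029 others (13.1%, 12.3 to 13.9%), with 13.1% over all listed distal regions, so that here the share was near the background. Promoters made up 53.9% of the regions of chromatin genes and 52.4% of the other regions. The start within reach belonged to the chromatin gene itself for 104 of the 111 promoter regions, of which 49 were negative. The other 7 lay at a non-coding or other neighbouring start, such as Gm44686 inside Chd2.

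The negative shares were also set out by position. Between 1000 and 250 bp upstream of a start, counted from the nearest protein-coding start, 7 of 12 regions in the outer 500 bp and 6 of 10 in the inner 250 bp were negative, against 22.1% of 240 and 33.4% of 365 regions of other genes. Within 250 bp upstream 14 of 32 regions were negative, against 22.5% of 2358 others, and within 250 bp downstream 16 of 37, against 23.1% of 3041 others. From 250 to 500 bp downstream these were 2 of 5 regions and 42.1% of 651 others. Each of these bins holds few regions of chromatin genes.

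**Figure D1:**
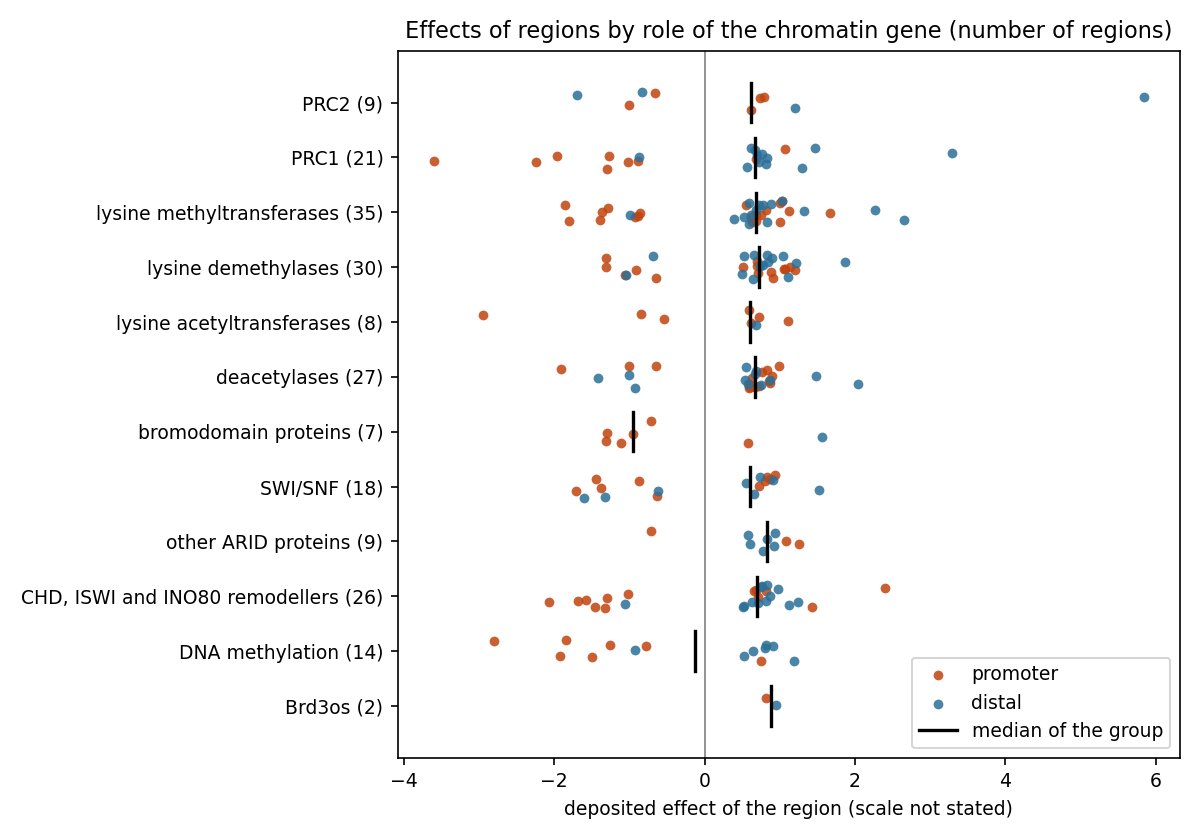
Deposited effect (horizontal axis, scale not stated) of each of the 206 regions, in rows by the role of the nearest gene with the number of regions in brackets. Points are regions, promoter regions in red-brown and distal regions in blue, and the vertical bar is the median of the row. Most points left of 0 are promoter regions. The rows of bromodomain proteins (7 regions) and DNA methylation (14 regions) have medians of -0.946 and -0.128.

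Base composition moved with these shares. Promoter regions of chromatin genes had a median GC content of 65.3%, against 62.3% in other promoter regions, and 27.0% of them against 13.6% had 70% GC or more. Negative promoter regions of chromatin genes had a median of 71.4% GC and positive ones 62.5%, against 69.5% and 60.6% among other genes. In the promoters of chromatin genes with 70% GC or more, 29 of 30 regions were negative (96.7%, 83.3 to 99.4%), against 880 of 1051 in other genes (83.7%, 81.4 to 85.8%). From 60 to under 70% GC, 19 of 58 promoter regions were negative (32.8%, 22.1 to 45.6%), against 895 of 3907 (22.9%, 21.6 to 24.3%). From 50 to under 60% these were 2 of 18 and 76 of 2361 (11.1% and 3.22%). With the shares that other promoters had in these GC classes, the 111 promoter regions would hold 39.6 negative regions, or 35.7%, and with classes of 5 percentage points 41.3, or 37.2%. The observed 52 lay above both counts, and the weighted shares in turn lay above the 24.6% of other promoters. Neither difference was tested. For distal regions the same weighting gave 12.8, or 13.5%, beside the observed 14.

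Distal negative regions had a different composition. Their median GC content was 42.7%, against 53.4% in positive distal regions, and other distal regions had 42.7% and 51.0%, so that the contrast was not one of chromatin genes alone. Of the 14, 9 had under 45% GC: 2 in Hdac9 introns and 1 each near Hdac2, Smarce1, Kdm1b, Pcgf5, Chd7, Kmt2e and Kdm6a. Another 3 had 60% GC or more and lay far upstream of Arid1a, Arid1b and Ezh2. Across the 206 regions the effect fell with GC content (Pearson's r = -0.397, Spearman's rho = -0.383), across the 111 promoter regions r was -0.514 (rho = -0.562), and across the 95 distal regions it was 0.137 (rho = 0.0584). These correlations describe regions that share both libraries, and other regions gave -0.317, -0.528 and 0.0644.

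**Figure D2:**
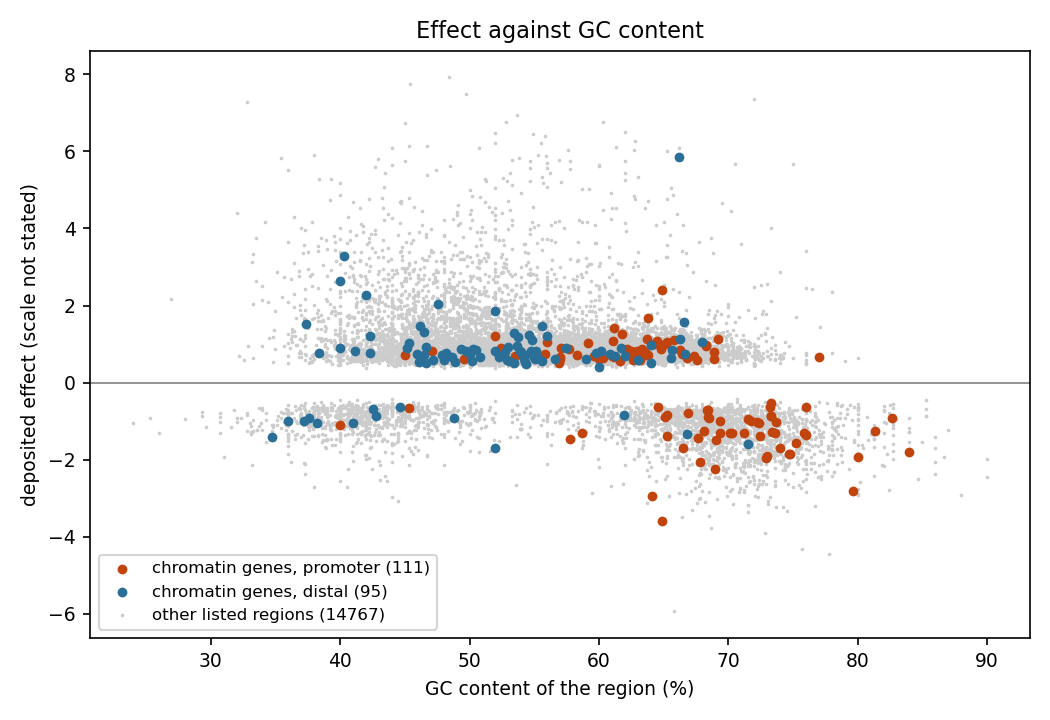
Deposited effect (vertical axis, scale not stated) against GC content (horizontal axis, percent) for promoter regions (red-brown, 111) and distal regions (blue, 95) of chromatin genes, with the 14767 other listed regions in grey. Promoter regions of chromatin genes with 70% GC or more lie below 0 in 29 of 30 cases, and the band around 0 is empty because only regions past the authors' threshold were listed.

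**Figure D3:**
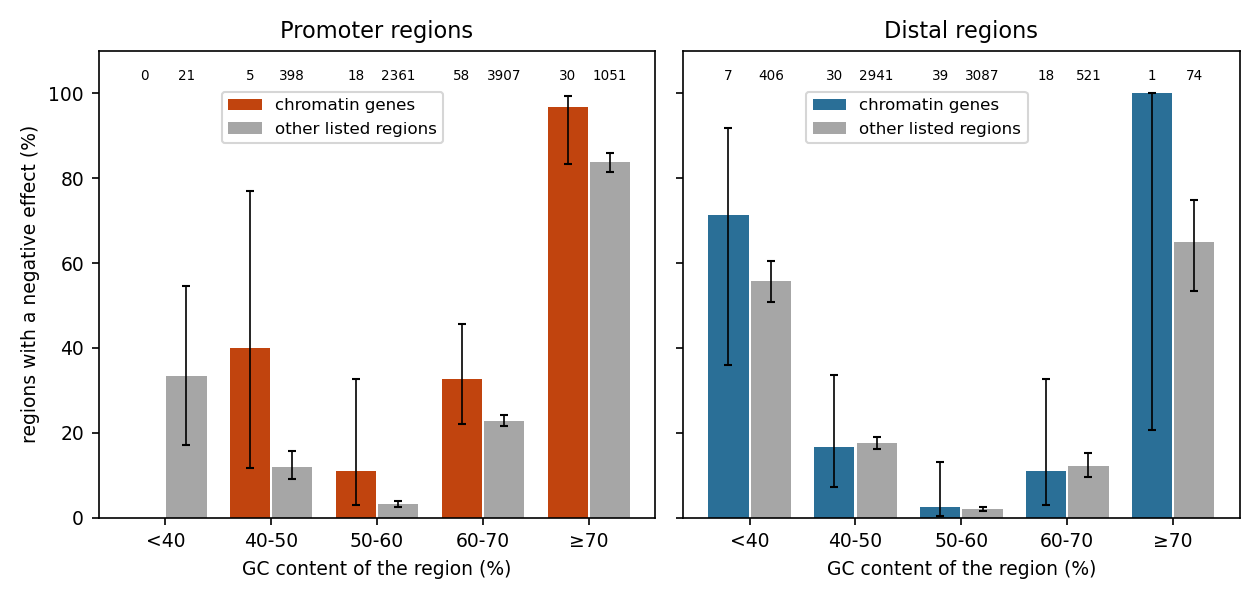
Share of regions with a negative effect (vertical axis, percent) by GC class (horizontal axis) in promoter regions (left) and distal regions (right), for chromatin genes (coloured) and other listed regions (grey). Error bars are 95% Wilson intervals, and the number of regions stands above each bar. At promoters the coloured bars are higher in the 4 classes that hold regions of chromatin genes, the highest being 96.7% against 83.7%. The intervals of chromatin genes and other regions overlap in every class of both panels that holds both.

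Among genes of PRC2, which holds the catalytic subunits Ezh1 and Ezh2, the scaffold subunits Eed and Suz12 and the accessory factor Jarid2, 4 of 5 had a region. The core genes had positive promoter effects: 0.786 at Eed (chr7:89980151-89981425, the authors' adjusted p = 0.000135), 0.736 at Ezh1 (chr11:101226201-101226725, the authors' adjusted p = 0.00066) and 0.615 at Ezh2 (chr6:47594151-47595650, the authors' adjusted p = 0.00348). Jarid2, which recruits PRC2 to DNA, had 1 promoter region with an effect of -1.001 (chr13:44730476-44730850, the authors' adjusted p = 5.09e-06). Suz12 had no listed region. Ezh2 had 5 further regions, all upstream of its start and 1 of them at the start of Gm25283, at 15895 to 78033 bp from its start, with effects of 1.20, -0.663, -1.69, -0.832 and 5.84 in order of distance. The last, at chr6:47672926-47673200, was the highest of all 206 regions and ranked 29 among all listed regions. Its 300 bp centre matched 17 places, all on chromosome 6 within 117 kb, so its reads cannot be tied to a single copy. A further 8 listed regions lie in that stretch, given to Pdia4, with effects between -2.86 and 5.68, and linking this array to Ezh2 rests on distance alone.

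PRC1 gave the lowest value of the set. Of its 14 genes 9 had a region, and 8 of 21 regions were negative, 7 of them at promoters. The negative share was 38.1% (20.8 to 59.1%), against 19.3% of all listed regions. Phc1 and Phc2 encode polyhomeotic proteins, which polymerise and cluster PRC1. Phc1 had -3.60 at its start (chr6:122339201-122340600, 64.9% GC, the authors' adjusted p = 1.1e-12), rank 6 from the bottom of the whole table, and 1.47 at 47214 bp upstream. Phc2 had -1.30 and -2.24 on the 2 sides of a start, in neighbouring regions 75 bp apart, and 0.615 at 15972 bp upstream. The promoter of Bmi1, which supports the ubiquitin ligase of PRC1, had -0.879 (the authors' adjusted p = 0.00024). Pcgf5, of a variant PRC1, had 6 regions of both signs: -1.02 and -1.96 at 2 GC-rich starts, -0.878 and 1.30 in introns, and 3.29 and 0.724 outside the gene. All 4 regions of the chromodomain genes Cbx7 and Cbx8, which read the PRC2 mark, were distal and positive, between 0.569 and 0.827. Over all listed distal regions 86.9% were positive. No HP1 gene (Cbx1, Cbx3, Cbx5) had a listed region.

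Genes with Kmt or Setd symbols, grouped as lysine methyltransferases by symbol alone whatever the substrate, had 35 regions in 15 of 18 genes. Of the 35, 26 were positive and 9 negative (74.3% positive, with an interval of 57.9 to 85.8% that holds the 80.7% of all listed regions). The trithorax-type gene Kmt2a, known as MLL1, carried both signs within one promoter, and the 2 stretches are printed as the clearest example of neighbouring sequences with opposite effects, chosen after their values were seen.
Kmt2a, effect -1.85, chr9:44881300-44881599: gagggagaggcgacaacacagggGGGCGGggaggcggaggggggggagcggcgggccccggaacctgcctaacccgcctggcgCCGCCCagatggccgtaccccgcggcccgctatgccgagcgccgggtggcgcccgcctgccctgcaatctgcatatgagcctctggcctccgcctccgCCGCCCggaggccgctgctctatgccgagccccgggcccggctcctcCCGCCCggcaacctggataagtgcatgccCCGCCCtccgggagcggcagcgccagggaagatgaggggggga
Kmt2a, effect 0.630, chr9:44881863-44882162: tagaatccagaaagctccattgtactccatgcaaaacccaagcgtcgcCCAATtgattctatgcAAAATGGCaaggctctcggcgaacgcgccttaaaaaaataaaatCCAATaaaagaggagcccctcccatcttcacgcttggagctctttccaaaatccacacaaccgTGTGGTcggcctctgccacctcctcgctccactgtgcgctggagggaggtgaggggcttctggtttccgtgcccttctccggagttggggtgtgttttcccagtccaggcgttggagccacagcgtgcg
The regions lie 75 bp apart upstream of a Kmt2a start and within AC061963.1. The first had 74.8% GC (the authors' adjusted p = 1.09e-08), and its printed stretch held 5 matches of GGGCGG and 32 CpG dinucleotides. The second had 60.3% GC (the authors' adjusted p = 0.00221), and its stretch held 2 CCAAT boxes, 1 YY1 and 1 RUNX match, no GGGCGG and 16 CpG dinucleotides. A region 375 bp farther out had 0.520. Kmt2d, an enhancer methyltransferase of the same family, had 3 negative promoter regions in a row (-0.919, -1.81 and -0.891, with 82.7%, 84.0% and 68.4% GC) and an intronic region with 0.832. Kmt2e had 6 regions: the pair of masked upstream regions printed above, 0.823, 0.598 and 1.67 between those and its start, and -0.986 in an intron of 37.2% GC. Setd1a, of the SET1 complexes, had -1.39 and -1.37 around its start and 0.396 in an exon of Orai3, the smallest effect of the set. Setd3 had -0.861 at a start of 73.3% GC that lies near Ccnk, and 0.730 and 0.887 at 80778 and 57791 bp downstream.

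Lysine demethylases had 30 regions in 16 of 18 genes, and 23 were positive (76.7%, near the 80.7% of all listed regions). Kdm6b, which removes the PRC2 mark and is known to be induced in activated T cells, had 6 regions, all distal and all positive. A cluster of 4 lay between 2875 and 4837 bp downstream of a start, with effects of 0.902, 1.04, 0.644 and 0.744 in 4 regions separated by at most 750 bp, and 1.22 lay 5400 bp upstream (chr11:69418751-69419400, the authors' adjusted p = 5.93e-08). The sixth, with 0.521, lay in an intron of Dnah2. The X-linked relative Kdm6a had 0.879 at its promoter and -1.04 in an intron of 38.2% GC. Kdm2b, which binds unmethylated CpG and brings PRC1 to CpG islands, had -1.31 at 1 start (75.8% GC), 0.693 at another (67.3% GC), 1.11 in an intron, and 0.492 at 5315 bp upstream of a start. Kdm5b, which removes methyl groups from lysine 4 of histone H3, had -0.641 just downstream of its start (76.0% GC) and 0.836 upstream. Kdm1b had -0.682 and 1.87 in introns, and 1.87 was the highest value of a demethylase gene.

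Acetyltransferase genes had 5 positive and 3 negative regions (37.5% negative, with an interval of 13.7 to 69.4% that holds the 19.3% of all listed regions). Kat6a (MOZ) had -0.840 and -2.94 on the 2 sides of its start, with 65.3% and 64.1% GC, whereas the promoter of its paralogue Kat6b had 1.10 (the authors' adjusted p = 3.77e-07) at 65.8% GC. The pair shows regions of like GC content with opposite effects. Kat2b (PCAF) had -0.541 over its first bases (73.3% GC) and 0.617 and 0.686 at 879 and 1267 bp downstream, in less GC-rich sequence.

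Deacetylases were positive in 21 of 27 regions (77.8%, near the 80.7% of all listed regions). Hdac4, a class IIa enzyme, had 6 positive regions, 5 in introns and 1 at a promoter, within the narrow range of 0.544 to 0.874. Hdac7, the class IIa enzyme prominent in T cells, had 1.48 at 6687 bp upstream of a start (the authors' adjusted p = 2.09e-09), 0.578 and 0.749, and -0.642 at a start of 73.2% GC. Hdac9 a further class IIa gene, had -1.41 and -1.005 in AT-rich introns, and 2.04 in an intron, where the sequence occurs at 2 places in the genome. Hdac1, the deacetylase of several corepressor complexes, had 0.766 at its promoter. Sirt1, an NAD-dependent deacetylase, had -1.91 over its start (73.0% GC, the authors' adjusted p = 1.89e-07) and 0.895 at 996 bp upstream of another annotated Sirt1 start, in an intron of Dnajc12.

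Of the 7 regions of bromodomain genes, 5 were negative (71.4%, 35.9 to 91.8%), all of them at promoters as defined here. Over all listed regions 19.3% were negative, and over all listed promoter regions 24.9%. The 7 regions belonged to 4 genes, and 1 gene held more than 1 of the negative ones. Brd2, of the BET family, had 1.56 at 1024 bp upstream of a start (the authors' adjusted p = 1.78e-09) and 0.581 downstream. Brd3os had 0.9502 and 0.812, while the promoter of Brd3 itself had -0.946.

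SWI/SNF genes had 10 positive and 8 negative regions (44.4% negative, 24.6 to 66.3%, against 19.3% of all listed regions). Arid1a, the DNA-binding subunit, had 0.659, 0.866 and 0.732 and a distal region of 71.5% GC with -1.60. Smarca4 (BRG1), the ATPase, had 1 intronic region of 75 bp with 1.52 (the authors' adjusted p = 0.00328). Smarcc2, a core subunit, had 3 negative promoter regions (-0.632, -1.71 and -1.45) centred from 485 bp upstream to 504 bp downstream of its start, and Smarce1 had 0.727 at its promoter and -0.620 in distal sequence of 44.6% GC. Among other ARID genes, 8 of 9 regions were positive (88.9%, with an interval of 56.5 to 98.0% that holds the 80.7% of all listed regions). Arid5a, an RNA-binding factor that stabilises cytokine transcripts, had 1.26 at its promoter and 0.934 upstream, and Arid3b had -0.714 at its promoter and 0.928 in fully masked sequence.

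Among CHD, ISWI and INO80 remodellers, 18 of 26 regions were positive and 8 negative. The negative share was 30.8%, with an interval of 16.5 to 49.99% that holds the 19.3% of all listed regions. Smarca5, the ISWI ATPase SNF2H, had the highest promoter value of all chromatin genes, 2.40 at chr8:80739126-80740050 (the authors' adjusted p = 5.13e-11, 64.9% GC), in sequence found at 2 places in the genome. Chd7, mutated in CHARGE syndrome in humans, had -2.06 and -1.32 upstream of a protein-coding start, the latter within an intron of the gene. It also had -1.05 and 0.513 in introns farther downstream. Chd1 and Chd6 had negative promoters (-1.30 and -1.69) and positive introns (0.817 and 0.762). Chd2 had 4 positive regions between 0.527 and 1.43. Chd9 had 4 positive regions between 0.654 and 0.832 and -1.01 in a stretch of 73.7% GC at Gm6658. Ino80, the ATPase of its complex, had 0.818 at its promoter, and Ino80d had -1.58 and -1.46 at its start and 1.25 in distal sequence. Chd4, the ATPase of NuRD, had no listed region.

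The regions of DNA methylation genes were split evenly, 7 positive and 7 negative. The interval of the negative share was 26.8 to 73.2%, against 19.3% of all listed regions. Of the 7 negative regions, 4 were neighbouring promoter regions of Dnmt3a, separated by at most 250 bp, so the split rests largely on 1 gene. Dnmt3a, the de novo methyltransferase, had 4 negative regions centred from 680 bp upstream to 128 bp downstream of a start (-0.784, -1.92, -1.25 and -2.80, with 66.9 to 81.3% GC) and 2 positive intronic regions (0.906 and 0.640) at 10103 and 16528 bp downstream. The maintenance enzyme Dnmt1 had positive effects at its promoter (0.755, the authors' adjusted p = 0.00118) and 1875 bp upstream (0.527). Dnmt3c, a rodent enzyme of the male germ line, was given a region in an intron of Dnmt3b with 1.18. Tet2, the TET gene most often mutated in blood cancers, had 1 distal region with -0.920, and Tet3 had -1.84 at its promoter (74.7% GC) and 0.797 in an intron.

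Several genes held regions of both signs. Of 52 genes with at least 2 regions, 27 had both signs (51.9%), against 876 of 2923 other genes (30.0%). In 18 of the 27 a negative region lay within 1000 bp of a start of the gene and a positive one farther away, a count not made for other genes. Over all genes with a region, chromatin genes had 2.02 regions per gene, against 1.48 in other genes, and the part of this in the share with both signs was not tested. Of all 138 genes 73.9% had at least 1 region, where 42.9% of all protein-coding genes did. Next to each other, however, regions mostly shared a sign: of 27 neighbouring pairs under 2000 bp apart, 15 were both negative, 9 both positive and 3 opposite (11.1%). Of 945 such pairs in other genes, 237 were both negative, 592 both positive and 116 opposite (12.3%), and the difference was not tested. In those 3 pairs, at Chd1, Kat2b and Kmt2a, the negative region was the one richer in GC, as it was in 93 of the 116 others.

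**Figure D4:**
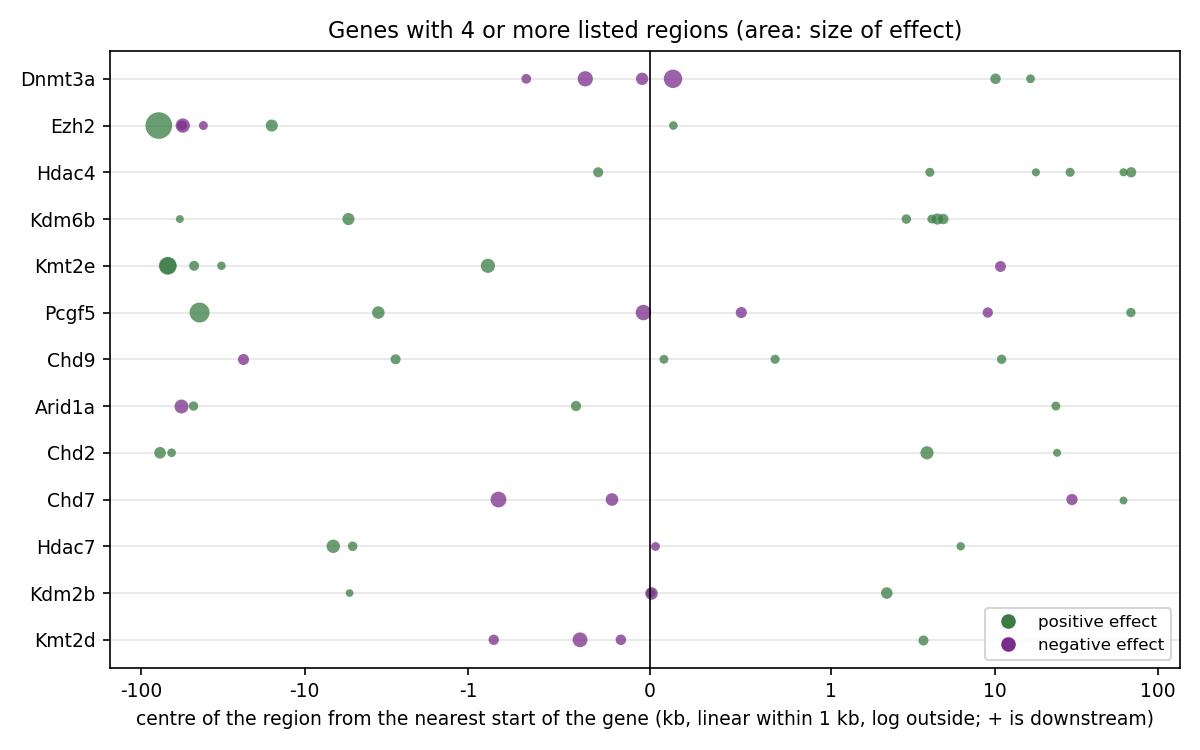
Regions of the 13 chromatin genes with 4 or more listed regions, placed by the distance of their centre from the nearest start of the gene (horizontal axis, kb, linear within 1 kb and logarithmic outside, positive values downstream). Each circle is a region, green for a positive and purple for a negative effect, and its area grows with the size of the effect. Purple circles gather within 1 kb of the start in Dnmt3a, Kmt2d, Chd7 and Pcgf5, with 1 more farther away in each of Chd7 and Pcgf5. In Ezh2, Arid1a, Chd9 and Kmt2e they all lie farther away. The 6 regions of Hdac4 and of Kdm6b are all green.

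Consensus sequences were searched on both strands in the 300 bp around each centre. The promoter elements were CRE (TGACGTCA), the CCAAT box bound by NFY, the ETS core CCGGAAG, the YY1 site GCCATNTT, a CGCG element (CTCGCGAGA), the ZNF143 core ACTACAA, and the NRF1 site, which is GCGCA followed after any 1 base by the letters GCGC. To these were added GGGCGG, the core that SP and KLF factors bind in many CpG island promoters. Another was the E-box of basic helix-loop-helix factors such as the Myc proteins, here only in the form CACGTG. The elements of lymphoid and activation-dependent factors were AP-1 (TGANTCA), STAT (TTCNNNGAA) and the core TGTGGT of RUNX, a family that is active throughout T cell development. The search also took the IRF doublet, which is GAAA repeated after any 2 bases, and, for the GATA family of factors that includes the T helper regulator Gata3, the letters AGATAA. Shares in chromatin genes were close to those in other regions for the promoter elements: 31.6% against 31.9% for NFY, 9.22% against 9.29% for ETS and 44.7% against 42.1% for SP/KLF. The elements of lymphoid and cytokine-responsive factors had shares of 12.6% (8.76 to 17.9%) against 18.4% for RUNX, 6.31% (3.72 to 10.5%) against 10.3% for STAT and 11.7% (7.96 to 16.7%) against 15.4% for AP-1. These shares describe the letters in the windows, and the differences were not tested.

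Within promoters of chromatin genes the consensus content differed between the signs. CCAAT was in 32 of 59 positive regions (54.2%) and in 9 of 52 negative regions (17.3%), while in other promoters these shares were 37.2% and 17.8%. GGGCGG was in 37 of 59 positive regions (62.7%) and in 42 of 52 negative regions (80.8%), against 60.4% and 81.3% in other promoters. The NRF1 consensus was in 9 positive and 2 negative regions (15.3% and 3.85%), against 8.18% and 6.03%, and ETS in 12 and 6 (20.3% and 11.5%), against 16.6% and 8.13%. Negative promoter regions were also the more GC-rich ones, as given above, and the part of GC content in these shares was not tested.

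**Figure D5:**
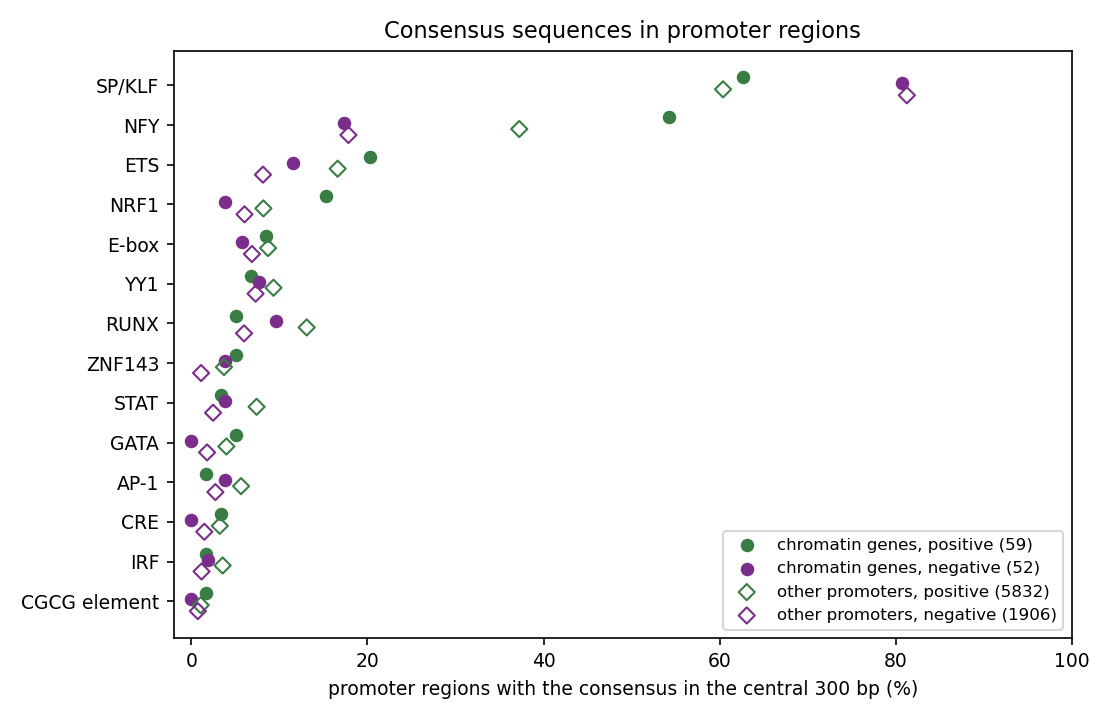
Share of promoter regions (horizontal axis, percent) whose central 300 bp hold each of 14 consensus sequences (rows). Filled circles are promoters of chromatin genes and open diamonds other listed promoters, green for positive and purple for negative effects, with the number of regions in brackets. NFY stands at 54.2% in positive and 17.3% in negative promoters of chromatin genes, and SP/KLF at 62.7% and 80.8%.

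Repeats and duplicated sequence took up little of the set. Only 3 of the 206 regions were multi-copy by the matches of their central 300 bp (at Ezh2, Smarca5 and Hdac9), against 872 of 14767 others. These 3 had effects of 5.84, 2.40 and 2.04. A further 8 regions were soft-masked over more than 50% of their length, against 867 of the 14767 others. Of the 8, 7 were positive (87.5%, with an interval of 52.9 to 97.8% that holds the 80.7% of all listed regions). All 6 effects of 2 or more thus lay in multi-copy or mostly masked sequence.

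A second list of 83 chromatin genes with other names served as a comparison. It holds Ep300, Ncor1, Rnf2, Rybp, Pbrm1, Sin3a, Hcfc1 and the like. Of these 70 had a region, where 42.9% of all protein-coding genes did. Of their 104 regions 31 were negative (29.8%, 21.9 to 39.2%), against 19.3% of all listed regions. At promoters, with a median GC content of 65.3%, 28 of 69 were negative (40.6%, 29.8 to 52.4%), against 24.9% of all listed promoter regions. In distal sequence 3 of 35 were negative (8.57%, 2.96 to 22.4%), with an interval that holds the 13.1% of all listed distal regions. The lowest was -2.64 at Pbrm1, the SWI/SNF subunit polybromo, followed by -1.93 at Ncor1, the nuclear receptor corepressor. All 3 regions of Rybp, a PRC1 partner, were negative (-0.647 to -1.75), and the ligase gene Rnf2 had -1.61. All 3 regions of Hcfc1, a cofactor of histone methyltransferases, were positive (1.41 to 1.76), as were all 3 of the corepressor gene Sin3a (0.511 to 0.734).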

How the data were processed

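STARR-seq output of 2 libraries of activated Th1 cells was used through 1 deposited region table that, per the file headers, the authors made from the mm10 alignments of both. The aligner, caller, test and normalization remain not given in the sources used here. The deposited effect is a signed score of unstated scale, and each region has a deposited p-value, an adjusted p-value (q-value) and a width. Scaffolds outside chromosomes 1 to 19, X and Y held 21 regions, which were not used.

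Starts came from the GENCODE M21 basic set (protein-coding transcripts for the nearest gene, all transcripts for promoters) and sequence from GRCm38, the assembly of mm10. Python 3.11.15, pysam 0.24.0, samtools 1.23.1, numpy 2.4.6, scipy 1.17.1, pandas 2.3.3 and matplotlib 3.10.9 were used. Copies were matches of the central 300 bp with at least 95% identity (matching bases over alignment length) over at least 240 bp in minimap2 2.31 (k = 19, w = 10, N = 50, p = 0.5). A centre with no such match was counted as single-copy. Shares have 95% Wilson intervals.

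No test between groups of regions was made. The members, lists and consensus sequences were chosen with earlier results of these data known. Genes named were the 10 highest and 10 lowest regions, the extremes of each role, genes with 4 or more regions or with both signs, and a fixed set. Other genes were added as examples after their values were seen, among them Arid1b, Brd3 and the genes of the second list. Some items that the rule names are not reported here. On simulated data the search found 1400 of 1400 planted consensus sequences and the nearest start of 2000 of 2000 positions.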

Additional observations from a re-analysis of the deposited data

How the results depend on the processing

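The share of positive regions, 68.0%, lay between 62.0 and 71.7% with a stricter adjusted p of 0.001, gene distances of 50 and 20 kb, neighbouring regions merged, single-copy regions, 1 region per gene or Brd3os left out. The negative share of promoter regions lay between 41.5 and 53.4% under the first 5 of these, with promoter windows of 500 and 2000 bp, and with starts of the gene itself, while 1 region per gene and Brd3os left out were not run for it. Brd3os and starts of the gene itself were alternatives chosen after seeing the data. Among regions with an absolute effect of at least 1, the positive share was 44.9% of 78 regions (67.1% of all such listed regions), the median effect reversed to -1.02 (1.12 over all such regions), and 70.6% of 51 promoter regions were negative (46.1% over all such regions). This filter removes most positive regions by construction, since the positive median was 0.785 and the negative one -1.26. The median effect was 0.744 with the stricter adjusted p, against 0.674 as reported. Negative shares were 15.2% below 60% GC (10.2% of all listed regions) and 47.7% at and above it (34.2%). In central windows of 200 bp, 11 of 14 consensus shares stayed within their intervals, and NFY (21.4%), SP/KLF (37.9%) and RUNX (6.31%) were lower, as fewer bases were searched. No paired analysis was possible because the table holds no value per library, which also prevented leaving out a replicate. No depth is stated, so no interval can be set on an effect.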
